A study of Arabidopsis thaliana with 36 samples.

Results

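Extensins are hydroxyproline-rich glycoproteins of the plant cell wall. The genes described here are the 51 of 28496 named Arabidopsis thaliana genes whose deposited annotation contains the word extensin, without AT1G12040 and AT1G62440, which the same search also finds. Their mRNA was measured by RNA sequencing in 36 libraries, 18 from shoots and 18 from roots, with 2 biological replicates of pooled seedlings in each of 9 groups per tissue. The groups cross 3 genotypes, the Col-0 wild type (WT) and lines 4 and 12, with 3 Pi (inorganic phosphate) supplies: 250 µM Pi throughout (sufficient), or a move to 10 µM Pi for 1 or 3 days (starved). Both lines carry PHT5;1, a transporter that moves Pi into the vacuole, fused to GFP behind the constitutive 35S promoter in the Col-0 background, and each is a single transgenic line. All seedlings grew on sucrose agar at 250 µM Pi to an age of 10 days. The starved ones were then also moved to new medium and kept 1 or 3 days longer than the sufficient ones. Starvation, age and transfer therefore cannot be told apart.

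A classical extensin is a rod of repeats in which a serine is followed by several prolines. The prolines are hydroxylated and carry short arabinose chains, and tyrosines between the repeats are joined by wall peroxidases, which ties the rods into a network. In Arabidopsis such networks are best known from the new wall of dividing cells, which needs EXT3, and from root hairs, the tubular outgrowths of root epidermal cells that take up water and ions and that become longer and denser when Pi is low. Not every gene annotated with the word is such a rod. Of the 51, 17 are annotated as the proline-rich extensin-like family. Another 27 carry a domain shared with Ole e 1, an allergen of olive pollen. There are also 3 receptor kinases (PERK1, PERK4 and PERK10), which have a proline-rich part outside the membrane and a kinase inside. The remaining 4 are EXT3, EXT4, ELP and EPR1.

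The repeats are easiest to see in the coding DNA. The following 75-base stretches are shown because EXT3, AT2G43150 and EXT4 were among the most abundant members in the root, and EXT6, EXT10 and EXT13 among those that changed most there. They were read from the RefSeq TAIR10.1 genome, all lie in coding exons, and run 5′ to 3′ on the coding strand. Capitals mark the codons of 1 serine and 4 prolines.
EXT3, chr1:7454749-7454823, minus strand: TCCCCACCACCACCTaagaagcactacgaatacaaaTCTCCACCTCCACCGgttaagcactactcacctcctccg
AT2G43150, chr2:17945995-17946069, plus strand: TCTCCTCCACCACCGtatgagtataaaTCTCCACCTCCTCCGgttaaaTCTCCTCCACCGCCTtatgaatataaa
EXT4, chr1:28896695-28896769, minus strand: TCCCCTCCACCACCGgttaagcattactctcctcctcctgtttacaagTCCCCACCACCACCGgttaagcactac
EXT6, chr2:10622666-10622740, plus strand: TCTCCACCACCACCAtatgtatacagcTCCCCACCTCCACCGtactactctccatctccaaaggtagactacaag
EXT10, chr5:2041602-2041676, minus strand: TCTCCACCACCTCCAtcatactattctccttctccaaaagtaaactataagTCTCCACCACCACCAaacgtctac
EXT13, chr5:13434421-13434495, plus strand: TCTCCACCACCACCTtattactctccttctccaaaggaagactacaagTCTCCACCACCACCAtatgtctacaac

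EXT6 encodes 37 such blocks, EXT10 42, EXT13 14, EXT3 28, AT2G43150 22 and EXT4 9. The highest count was in AT3G28550, with 70 blocks, followed by AT3G54580 with 68. Blocks were present in 16 of the 17 proline-rich members (0 to 70 per gene, median 29) and in 0 of the 27 Ole e 1 members. Proline made up a median of 37.1% of the residues in the proline-rich family and 5.48% in the Ole e 1 family. The sequence tyrosine-valine-tyrosine, a motif that can form a cross-link within an extensin chain, occurred 20 times in EXT6, 24 times in EXT10, 12 times in EXT3, 1 time in AT2G43150 and 0 times in EXT4.

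The repeats also limit what the reads can resolve. AT4G08400 and AT4G08410, neighbours on chromosome 4, have identical letters in the stretch below, which is shown for that reason.
AT4G08400, chr4:5324922-5324996, minus strand: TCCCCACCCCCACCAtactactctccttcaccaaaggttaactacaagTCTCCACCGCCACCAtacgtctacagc
AT4G08410, chr4:5340736-5340810, minus strand: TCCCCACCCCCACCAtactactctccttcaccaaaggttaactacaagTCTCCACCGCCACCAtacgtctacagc
Of all 100-base windows of its exons, 40.6% of AT4G08400 and 30.1% of AT4G08410 recurred elsewhere in the genome, so the split of reads between this pair is uncertain. For the other members called in a comparison below, the share was under 1%.

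The deposited values are RPKM, read counts scaled by gene length and by the mapped reads of the library. Library totals estimated from the spacing of low RPKM values were 19.0 to 40.7 M reads, at which 0.25 RPKM of a 1500-base gene equals 7.1 to 15.3 reads. PHT5;1 itself was at 28.2 and 29.2 RPKM in WT roots at sufficient Pi, 306 and 338 in line 12 and 52.1 and 57.5 in line 4. In shoots it was at 14.7 and 15.2 RPKM in WT, 65.9 and 74.6 in line 12 and 19.0 and 35.5 in line 4, where the difference passed on p (adjusted p = 0.0240, limma) but its ratio of 1.82 was under 2. Green tissue markers summed to 29069 to 45614 RPKM in shoots and root markers to 4145 to 6170 in roots against 123 to 301 in shoots, as the tissue labels say. Pollen markers summed to at most 2.82 RPKM, with 3 or 4 of the 5 at 0 in every group. The second replicates of 5 shoot groups (WT and line 12 at sufficient Pi, line 12 and line 4 at 1 day, WT at 3 days) shared 313 genes seen in no other library, none of them an extensin-like gene. Without these libraries 17 of the 34 calls in shoots were lost, and the values of those calls are given beside the results or with the list of response differences.

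All tests below used limma on log2(RPKM + 0.25) across all genes whose mean RPKM reached 0.25 or more. A gene is said to rise or fall where the Benjamini-Hochberg adjusted p was under 0.05 and the ratio of group means was at least 2 in shoots or 1.5 in roots. Of the 51 members, 25 passed the filter on low values in shoots, 36 in roots and 40 over both tissues. AT2G41390 was at 0 RPKM in all 36 libraries. No library reached 1 RPKM for 8 of the Ole e 1 members, 3 of the proline-rich members or EPR1, which is known from the endosperm of germinating seeds.

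In WT at sufficient Pi, most extensin-like genes tested differed between root and shoot. The proline-rich members tested were mostly root genes, with 13 of the 14 higher in the root by at least 2-fold and 0 lower. The Ole e 1 members were split, with 8 of 20 higher in the root and 8 lower. Together 24 of 40 were higher in the root, beside 35.9% of all genes tested, and 9 were lower, beside 15.3%. The median root-to-shoot difference was 4.18 on the log2 scale for the 40 members and 0.65 for all genes tested. The 2 tissues differ in what a read share means, and scaling by the median ratio moved that all-gene median to 0.04.

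EXT3 had a mean of 2259 RPKM in the root and 22.9 in the shoot (log2 difference 6.74, SE 0.36, adjusted p = 2.89e-14, limma). AT2G43150 was at 2237 and 2504 RPKM in the WT root libraries and at 114 and 142 in the shoot. AT3G28550, with its 70 blocks, averaged 146 RPKM in the root and 0.0529 in the shoot. EXT10, AT5G06630, AT4G08410 and AT2G47530 were listed at 0 in both WT shoot libraries. Among the shoot genes, ELP averaged 1269 RPKM in the shoot and 221 in the root (log2 difference −2.52, SE 0.10), and it was the most abundant member in shoots over all 18 libraries. AT5G13140, an Ole e 1 member, averaged 68.7 RPKM in the shoot and 6.46 in the root. AT2G27385, AT3G16660 and AT3G16670, all Ole e 1 members, were at 189, 79.7 and 146 RPKM in the shoot and listed at 0 in both root libraries. AT1G78040, also of the Ole e 1 family, was abundant in both tissues, with 546 and 550.1 RPKM in the root and 414 and 476 in the shoot.

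**Figure D1:**
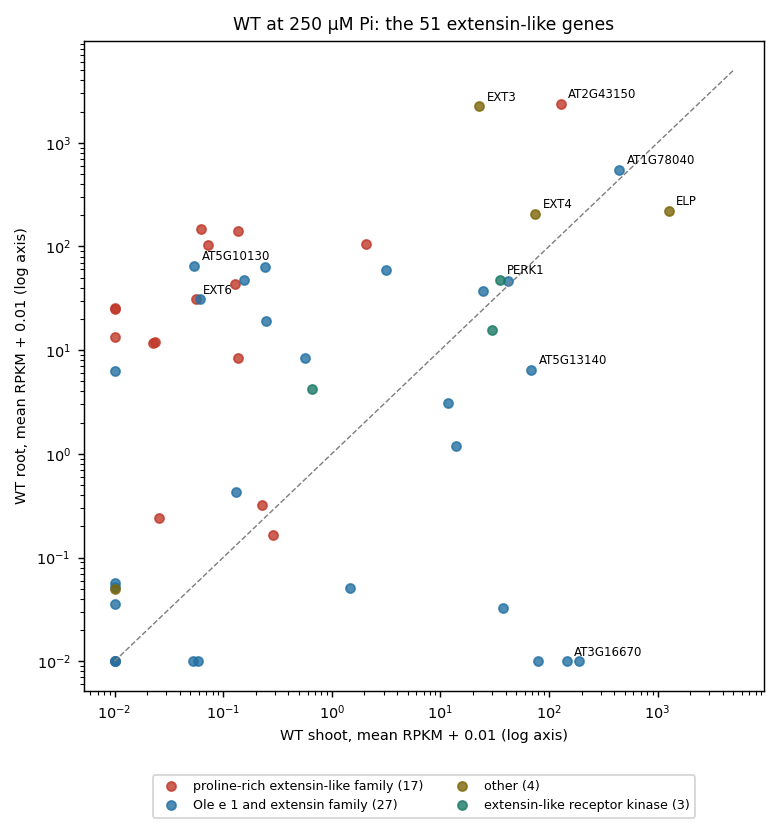
Mean RPKM in the root (vertical axis) against the shoot (horizontal axis) of WT at sufficient Pi for the 51 extensin-like genes, colored by family, on log axes. Most proline-rich members lie on the root side, EXT3 is at 2259 RPKM in the root against 22.9 in the shoot, and ELP lies on the shoot side.

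All members together took 0.845 to 1.46% of the summed RPKM of a root library and 0.335 to 0.425% of a shoot library. In roots the share was 0.971 and 1.07% in WT at sufficient Pi and 1.34 and 1.38% after 3 days of starvation. At sufficient Pi it was 0.931 and 0.959% in line 12 and 0.845 and 0.884% in line 4, in both lines below either WT library.

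The first question was how these genes responded to Pi starvation in WT roots. After 3 days, 17 of the 36 members tested had risen (47.2%), beside 8.27% of all genes tested, and PERK4 alone had fallen, beside 4.12%. The median log2 change was 0.56 for the 36 members and −0.06 for all genes. Most of these calls were in the proline-rich family, with 12 of 15 higher (median log2 change 1.20, range 0.22 to 1.80), and the others were 5 of the 15 Ole e 1 members. Without each WT library in turn, 15 to 17 members rose. The call of AT2G47530 was lost in all 4 of these fits (adjusted p = 0.09 to 0.108), that of AT5G19810 in 2 (0.0878 and 0.171) and that of AT1G23720 in 1 (0.0653). In whole roots, more cells of a type and more RNA per cell cannot be told apart.

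EXT6 was at 30.2 and 31.7 RPKM in WT roots at sufficient Pi, 25.5 and 27.0 after 1 day and 105 and 109 after 3 days. EXT10 followed the same course, with 24.9 and 26.1, then 21.7 and 19.6, then 88.4 and 90.4 RPKM. Both genes stood well clear of their sufficient levels at 3 days (EXT6 log2 fold change 1.78, SE 0.17, adjusted p = 1.12e-06; EXT10 1.80, SE 0.19, adjusted p = 4.51e-06; limma) and neither was called at 1 day. AT5G06630, which lies next to EXT10 on chromosome 5, rose from 23.1 and 27.0 to 85.3 and 88.6 RPKM. AT3G54580, with 68 blocks, rose from 97.9 and 109 to 261 and 271 RPKM. EXT13 rose from 40.7 and 45.2 to 102 and 96.5 RPKM, and EXT12 from 11.8 and 11.6 to 21.9 and 23.0. The replicates of these genes lay close together, and no 3-day library overlapped a sufficient one.

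The other proline-rich members that rose spanned a wide range of abundance. AT3G28550 went from 134 and 158 to 275 and 289 RPKM (log2 fold change 0.95) and AT1G23720, with 64 blocks, from 132 and 151 to 219 and 237 (0.69). AT1G26240 rose from 8.97 and 7.63 to 25.9 and 21.0 RPKM (1.47). The pair AT4G08400 and AT4G08410, whose reads may be shared, rose from 11.8 and 12.4 to 27.7 and 25.2 RPKM and from 12.4 and 14.1 to 31.7 and 32.4. AT5G19810 was the faintest of the 12, at 0.270 and 0.350 RPKM before and 1.53 and 0.792 after (log2 fold change 1.28, SE 0.36, adjusted p = 0.0139, limma). The 12 proline-rich members that rose encode 14 to 70 serine-proline blocks (median 39), and the 3 proline-rich members tested and not called, AT1G26250, AT2G43150 and AT4G08380, encode 28, 22 and 2.

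Of the Ole e 1 members that rose, AT3G09925 went from 48.9 and 45.9 to 117 and 95.4 RPKM (log2 fold change 1.15, SE 0.14, adjusted p = 2.41e-05, limma). MOP10, a protein needed for normal root hair elongation, went from 30.3 and 31.3 to 69.6 and 58.7 RPKM (1.05), and AT2G47530 from 6.21 and 6.35 to 11.8 and 12.0 (0.89). AT5G13140 and AT5G47635 were the exceptions in timing. AT5G13140 was already at 13.7 and 12.1 RPKM after 1 day, from 6.84 and 6.08, and stayed at 13.5 and 15.8 after 3 days. AT5G47635 went from 8.68 and 7.96 to 16.2 and 15.3 RPKM at 1 day and 14.4 and 15.6 at 3 days. They were the 2 members called in WT roots at 1 day, a share of 5.56% beside 5% of all genes tested. Green tissue markers, of the tissue in which AT5G13140 is far higher, summed to 301 and 411 RPKM in WT roots at sufficient Pi, 649 and 706 at 1 day, with 4 of 5 higher, and 659 and 694 at 3 days, with 3 of 5 higher. Their part in these results was not tested.

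The most abundant extensins of the root were not called. EXT3 and AT2G43150, the 2 most abundant members there, nevertheless lay above both sufficient libraries at 3 days, and they weigh heavily in the summed share of RPKM. EXT3 was at 2178 and 2339.5 RPKM at sufficient Pi and 3108 and 3130.0 after 3 days. Its change passed the test on p (log2 fold change 0.47, SE 0.14, adjusted p = 0.0246, limma) but its ratio of means, 1.38, was under the limit of 1.5. AT2G43150 went from 2237 and 2504 to 3029.5 and 3003 RPKM (0.35, adjusted p = 0.0657). EXT4, an extensin best known from wounding, was at 217 and 199 RPKM before and 171 and 163 after. The receptor kinase PERK1 had 46.3 and 49.0 RPKM before and 57.8 and 51.0 after, PERK10 15.8 and 15.4 before and 15.02 and 15.11 after, and neither was called. PERK4 fell from 4.37 and 4.10 to 2.23 and 2.98 RPKM (log2 fold change −0.66, SE 0.21, adjusted p = 0.0260, limma). That call was lost without either sufficient library (adjusted p = 0.126 and 0.0762) or without the first 3-day library (0.221).

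The second question was how the lines differed from WT at sufficient Pi. In roots of both lines a set of extensin-like genes was lower than in WT and none was higher. Line 12 had 13 of 36 members lower (36.1%), beside 2.69% of all genes tested, and 0 higher, beside 2.41%, with 2 higher at an unadjusted p under 0.05. Line 4 had 15 lower (41.7%), beside 3.74%, and 0 higher, beside 0.701%, also 0 at an unadjusted p under 0.05. The proline-rich family supplied 9 and 10 of these, with median log2 differences over the 15 members of −0.88 in line 12 and −1.12 in line 4. The 2 comparisons share the WT libraries, which are also the baseline of the starvation response, so the 3 sets are not independent of each other. PHT5;1 itself was far higher in roots of line 12 than of line 4, and whether these differences follow its level was not tested.

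EXT6 was at 14.02 and 15.84 RPKM in line 12 and 10.7 and 8.01 in line 4, against 30.2 and 31.7 in WT (log2 fold changes −1.04 and −1.72, SE 0.17, adjusted p = 6.72e-04 and 1.11e-05, limma). EXT12 was at 4.40 and 5.57 in line 12 and 3.96 and 2.26 in line 4, against 11.8 and 11.6 RPKM (−1.20 and −1.87). EXT13 had 17.4 and 19.3 in line 12 and 18.4 and 9.75 in line 4, against 40.7 and 45.2 RPKM (−1.22 and −1.66). AT3G54580 had 43.6 and 48.0 in line 12 and 41.8 and 34.2 in line 4, against 97.9 and 109 RPKM (−1.17 and −1.45). AT3G09925 had 22.2 and 20.1 in line 12 and 21.0 and 14.1 in line 4, against 48.9 and 45.9 RPKM (−1.16 and −1.45). In all these genes the 4 line libraries lay below both WT libraries, and line 4 replicate 2 was lowest in each. Without that library 13 members were lower in line 4, the calls of AT1G23720 (adjusted p = 0.101) and AT3G28550 (0.084) being lost. In line 12, of the 4 fits without 1 library, the calls of AT1G23720 and AT2G47530 were lost in 3, those of AT5G06630 and AT5G13140 in 2 and that of MOP10 in 1, with adjusted p of 0.0578 to 0.251.

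The other genes lower in both lines were EXT10 (log2 differences −1.03 in line 12 and −1.57 in line 4), AT5G06630 (−0.88 and −1.55), MOP10 (−1.06 and −1.55), AT2G47530 (−1.19 and −1.44), AT4G08400 (−1.20 and −1.12), AT4G08410 (−1.33 and −1.51), AT5G13140 (−0.78 and −0.89) and AT1G23720 (−0.64 and −0.74). AT2G47540 (−0.86) and AT3G28550 (−0.66) were called lower in line 4 only, and their difference between the lines was not tested. As in the starvation series, the most abundant extensins were not called. EXT3 was at 2223 and 2206 RPKM in line 12 and 1983 and 1834 in line 4, with adjusted p = 0.947 and 0.356, and AT2G43150 was at 2279.7 and 2312 in line 12 and 1982 and 1839 in line 4.

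**Figure D2:**
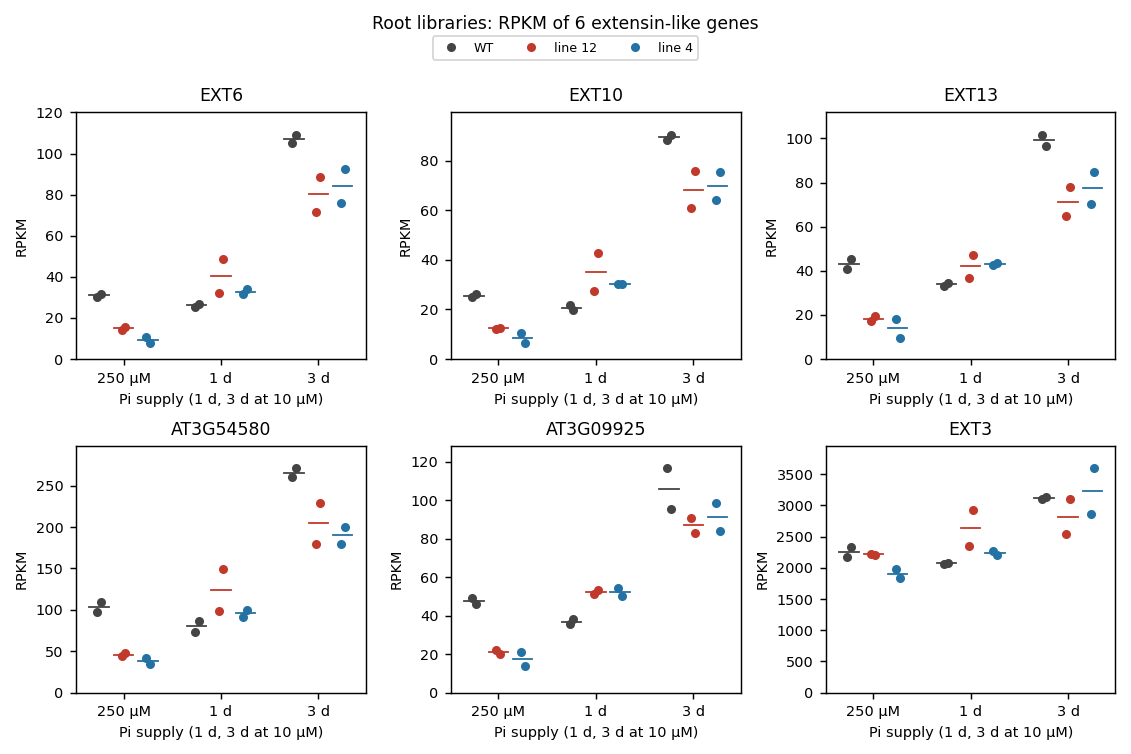
RPKM of EXT6, EXT10, EXT13, AT3G54580, AT3G09925 and EXT3 in each of the 18 root libraries (points) by genotype and Pi supply, with a line at each group mean. In the first 5 genes the lines lie below WT at sufficient Pi and all genotypes are high at 3 days, as for EXT6 with 105 and 109 RPKM in WT, while EXT3 stays between 1834 and 3599 RPKM.

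After 3 days of starvation the median log2 difference of the 15 proline-rich members was smaller than at sufficient Pi in both lines. The test of a changed response, given below, called EXT6 and EXT13 in line 4 but not in line 12. After 3 days EXT6 stood at 71.7 and 88.5 RPKM in line 12 and 75.8 and 92.4 in line 4, against 105 and 109 in WT, and EXT13 at 64.7 and 78.0 in line 12 and 70.5 and 84.9 in line 4, against 102 and 96.5. These values lay below both WT libraries, but no member passed the test as lower in either line. Line 4 had 0 of 36 members called, beside 3.02% of all genes, with 1 higher and 8 lower at an unadjusted p under 0.05. Line 12 had 2 called, beside 5.18%, with 5 higher and 15 lower at an unadjusted p under 0.05. Both calls were higher: AT1G26250, with 181 and 198 RPKM against 136 and 112 (log2 difference 0.62), and AT2G16630, with 3.97 and 3.33 against 2.42 and 1.61 (0.80). Without WT 3-day replicate 2, or without the second line 12 library, neither was called, and without the first line 12 library 1 was. The median log2 difference of the 15 proline-rich members at 3 days was −0.39 in line 12 and −0.35 in line 4.

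At 1 day the picture differed again. In line 12, 6 members were called, beside 5.87% of all genes. EXT6 was at 32.0 and 48.8 RPKM against 25.5 and 27.0 in WT (log2 difference 0.59), EXT10 at 27.5 and 42.8 against 21.7 and 19.6 (0.72), AT3G54580 at 98.3 and 149.8 against 73.4 and 86.3 (0.61) and AT1G26250 at 122 and 180.0 against 80.1 and 88.1 (0.82). In each of these 4 the second line 12 library was far above the first. Without it 2 members were called, without the first 10, and without WT 1-day replicate 1, 3. AT5G13140, at 5.89 and 6.76 against 13.7 and 12.1 RPKM, and SAH7, at 35.2 and 29.1 against 73.4 and 55.4 (−0.99), were lower. In line 4, 2 members were called, both lower, beside 3.17% of all genes: AT1G26240, at 4.52 and 5.12 against 11.5 and 9.52 RPKM (−1.08), and AT5G13140, at 8.59 and 8.43 (−0.58). Green tissue markers at 1 day summed to 387 and 423 RPKM in roots of line 12, with 4 of 5 lower than in WT, and 477 and 516 in line 4, with 2 of 5 lower, and their part was not tested. Of the 4 fits without 1 library, AT5G13140 lost its call in all 4 (adjusted p = 0.0838 to 0.275) and AT1G26240 in 3 (0.0549 to 0.109).

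A test of the difference between the 3-day responses called 12 of 36 members in line 4 (33.3%), all with a larger rise than in WT, beside 6.42% of all genes, and 3 in line 12 (8.33%), also with a larger rise, beside 11.1%. EXT12 had the largest difference in line 4 (1.52 on the log2 scale, SE 0.27, adjusted p = 0.00230, limma), going from 3.96 and 2.26 to 16.4 and 18.8 RPKM where WT went from 11.8 and 11.6 to 21.9 and 23.0. In line 12 AT3G09925 (0.88), AT3G54580 (0.78) and AT4G08400 (0.89) were called, but of the 8 fits without 1 library AT3G54580 and AT4G08400 each lost the call in 7 (adjusted p up to 0.183 and 0.187). In line 4 the same held for AT2G47530 and AT4G08410, also in 7 of 8 (adjusted p up to 0.141 and 0.14). These differences start from the lower sufficient level of the lines and use the same libraries as the comparisons above. Without WT 3-day replicate 2 the count was 7 in line 4 and 0 in line 12, without line 4 3-day replicate 2 it was 7 in line 4, and without WT 3-day replicate 1 or WT sufficient replicate 1 it was 1 in line 12.

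**Figure D3:**
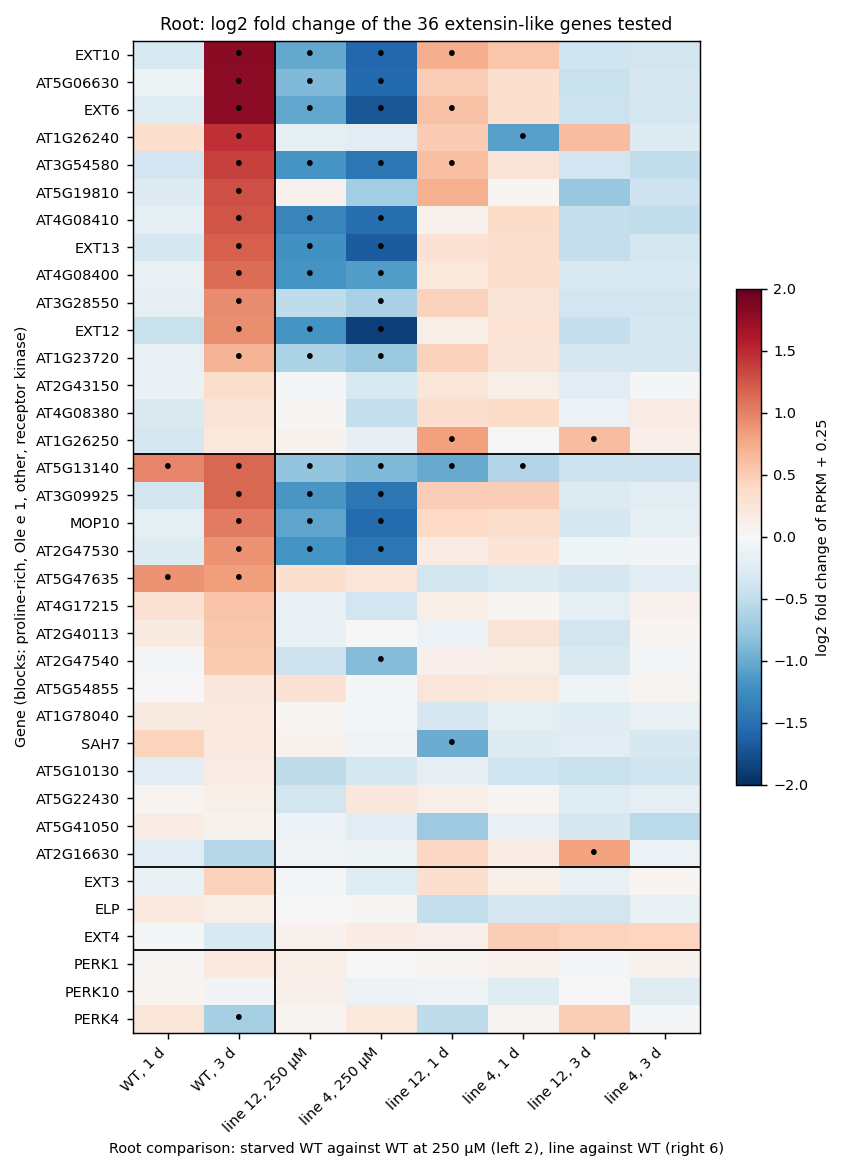
log2 fold changes (color) of the 36 extensin-like genes tested in roots (rows) in 8 comparisons (columns): WT starved 1 or 3 days against WT sufficient, and lines 12 and 4 against WT at each Pi supply. Dots mark genes called, 17 higher in WT at 3 days and 13 and 15 lower in lines 12 and 4 at sufficient Pi.

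Markers of root hairs moved in the same comparisons. The 7 markers (EXPA7, EXPA18, COBL9, COW1, PRP3, MRH6 and ADF8) summed to 159 and 161 RPKM in WT roots at sufficient Pi, 135 and 140 after 1 day and 353 and 397 after 3 days, when 7 of 7 had risen. At sufficient Pi they summed to 77.2 and 78.5 in line 12, with 6 of 7 lower, and to 46.9 and 83.4 in line 4, with 7 of 7 lower. At 3 days the sums were 280 to 284 in line 12 and 309 to 333 in line 4. No root hair marker was at 0 in any root group. The part of root hair cells in the extensin results was not tested.

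Other genes known for making or controlling extensins were read from a list of 21, of which 20 were tested in roots. In WT roots at 3 days, 5 of the 20 rose, beside 8.27% of all genes tested. They were PRX73 (log2 fold change 1.56) and PRX44 (1.23), peroxidases linked to extensin cross-linking in root hairs, ExAD (0.84), which adds an outer arabinose to extensins, and RHD6 (0.83) and RSL2 (1.23), transcription factors of root hair development. At sufficient Pi 4 were lower in each line, beside 2.69% of all genes in line 12 and 3.74% in line 4. They were PRX44 (−1.17 in line 12 and −1.35 in line 4), PRX73 (−1.28 and −1.86), RSL2 (−1.06 and −1.17) and RSL4, which drives root hair growth (−1.02 and −0.86). RSL4 was also lower at 3 days (−0.62 in line 12 and −0.71 in line 4). At 1 day RSL2 went the other way, lower in WT starved than sufficient roots (−0.75) and higher in line 12 (1.28) and line 4 (0.79) than in WT. The prolyl hydroxylases P4H2 and P4H5, which prepare extensins for glycosylation, were not called in any root comparison of WT at 3 days or of the lines at sufficient Pi. The list includes root hair genes by design.

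The 300-base promoter windows, 250 bases before to 50 after the RefSeq start, were searched on both strands for the root hair element, a sequence of root hair promoters bound by factors such as RSL4, and for the PHR1 binding sequence GNATATNC, which is found in many Pi starvation genes. The root hair element occurred in 3 of 51 members and in 0.867% of 27443 windows. Its sites are shown in capitals with the flanking bases, on the strand of the gene.
AT2G47530, chr2:19504034-19504089, plus strand: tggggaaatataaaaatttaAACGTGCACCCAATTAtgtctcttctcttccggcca
AT3G09925, chr3:3052905-3052961, minus strand: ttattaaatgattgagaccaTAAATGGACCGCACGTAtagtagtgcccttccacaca
AT5G15780, chr5:5146555-5146610, minus strand: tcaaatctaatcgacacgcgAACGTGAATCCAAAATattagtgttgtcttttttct
AT2G47530 and AT3G09925 were among the genes that rose in WT roots and were lower in both lines, while AT5G15780 was a shoot gene, at 37.9 RPKM in the WT shoot and 0.0228 in the root. The sequence GNATATNC occurred in 0 of 51 members and in 6.25% of all windows. A match describes the letters of this window only.

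In shoots the extensin-like genes showed no common direction. In WT no member was called after 1 day, beside 6.07% of all genes, with 3 higher and 4 lower at an unadjusted p under 0.05 in limma. After 3 days 3 were called (EXT3, EXT4 and AT3G26960), beside 6.81%, and 0 without the second 3-day library. The lines differed from WT in 3 members (line 12, beside 9.04%) and 2 (line 4, beside 3.21%) at sufficient Pi, in 8 (beside 11.3%) and 1 (beside 5.84%) at 1 day, and in 3 (beside 7.69%) and 1 (beside 8.22%) at 3 days. The 8 include AT2G40113, which passed the filter on low values only through line 12 at 1 day. At sufficient Pi the count was 1 in line 12 without its second library and 1 in line 4 without its first. At 1 day it was 0 in line 4 without its second library or the first of WT. At 3 days it was 1 in line 12 without its first library, and 2 in line 4 without its first library or the first of WT. The all-gene median in shoots lay between −0.14 and 0.19 on the log2 scale in these comparisons, and scaling by the median ratio brought it to within 0.02 of 0.

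EXT3, low in WT shoots, was the member that moved most. It was at 32.3 and 13.4 RPKM in WT at sufficient Pi, 162 and 348 in line 12 and 172 and 68.0 in line 4. At 1 day it was at 16.5 and 24.1 in WT, 319 and 288 in line 12 and 56.3 and 75.5 in line 4. At 3 days it was at 52.0 and 52.7 in WT, 133 and 126 in line 12 and 68.2 and 114 in line 4. All line libraries lay above the WT libraries of their Pi supply, though replicates within a group differed by up to several-fold. The log2 difference from WT was 3.50 in line 12 at sufficient Pi and 3.91 at 1 day (SE 0.46, adjusted p = 3.80e-05, limma), 1.30 at 3 days, and in line 4 it was 2.36 at sufficient Pi and 1.70 at 1 day. The value of line 4 at 3 days, 0.75, did not pass the test. Of the 4 fits without 1 library, the call of line 12 at 3 days was lost in all 4 (adjusted p = 0.109 to 0.127), and those of line 4 at sufficient Pi and at 1 day in 2 each (0.0972 to 0.112), where the value at sufficient Pi was 1.69 and 1.73. Without the 5 libraries that stand apart, the line 4 differences of 1.73 and 1.49 had adjusted p = 0.110 and 0.0668, the 3-day difference in line 12 was 1.31 (adjusted p = 0.0663), and the WT rise after 3 days went from 1.32 to 0.68 (adjusted p = 0.445).

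EXT4 was at 86.1 and 63.3 RPKM in WT shoots at sufficient Pi and 33.8 and 18.5 after 3 days (log2 fold change −1.55, SE 0.43, adjusted p = 0.0157, limma). In line 12 it was at 134 and 432 at sufficient Pi, 183 and 199 at 1 day against 36.2 and 31.4 in WT (2.49), and 89.5 and 95.9 at 3 days (1.88). The difference of line 12 at sufficient Pi, 1.70, was 0.63 without the libraries that stand apart (adjusted p = 0.289). No EXT4 difference was called in line 4. The WT fall had adjusted p = 0.131 without the second 3-day library and 0.0981 without the first sufficient library. AT2G43150, which like EXT3 is far more abundant in roots, had 114 and 142 RPKM in WT and 198 and 318 in line 12 at sufficient Pi (log2 difference 0.98), and 0.80 with a ratio under 2 without those libraries. Line 4 at sufficient Pi had 236 and 246 RPKM, a difference of 0.92 and a ratio of 1.88.

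**Figure D4:**
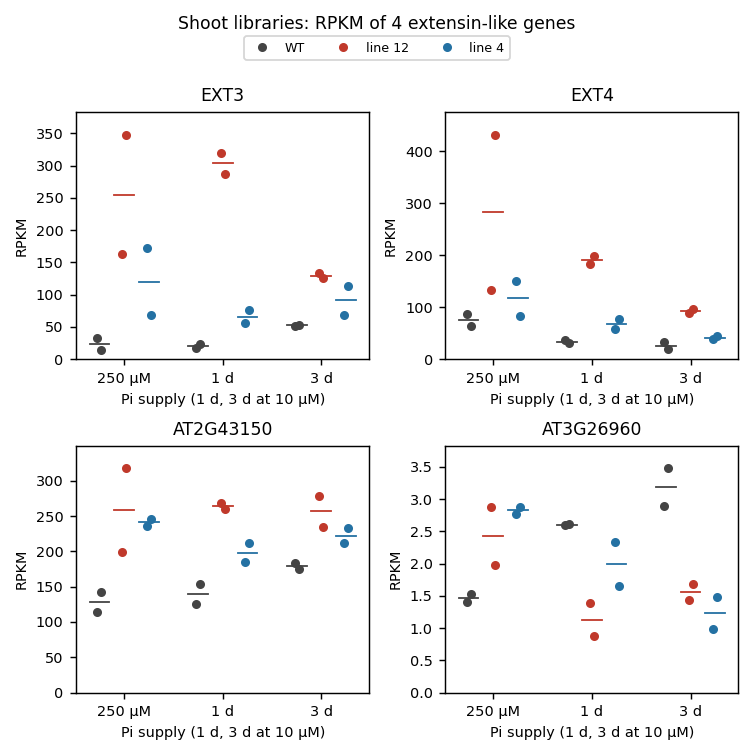
RPKM of EXT3, EXT4, AT2G43150 and AT3G26960 in each of the 18 shoot libraries (points) by genotype and Pi supply, with a line at each group mean. EXT3 is highest in line 12, at 162 and 348 RPKM at sufficient Pi, and the replicates of that group are far apart, as they are for EXT4 with 134 and 432.

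Among the Ole e 1 members in shoots, AT3G26960 rose in WT from 1.40 and 1.52 to 2.89 and 3.48 RPKM after 3 days (log2 fold change 1.00, SE 0.24, adjusted p = 0.00707, limma, and 0.93 with adjusted p = 0.0723 without the libraries that stand apart). It was at 1.44 and 1.69 in line 12 and 0.981 and 1.48 in line 4 at that time (−0.92 and −1.23), the former −0.80 and under the 2-fold limit without those libraries. At 1 day it was at 1.38 and 0.879 in line 12 against 2.603 and 2.608 in WT (−1.07, and −0.81 without those libraries, again under 2-fold). Its 3-day responses differed from that of WT by −1.55 in line 12 and −2.08 in line 4. AT4G17215 was at 1.04 and 1.04 RPKM in line 4 at sufficient Pi against 2.69 and 3.56 in WT (−1.38, and −1.19 with adjusted p = 0.0781 without those libraries), and at 4.12 and 3.62 in line 12 at 1 day against 1.502 and 1.982 (1.06). AT5G15780, at 19.3 and 18.3 against 43.3 and 38.1 RPKM, and AT5G41050, at 8.63 and 10.06 against 19.0 and 21.0, were lower in line 12 at 1 day (−1.10 and −1.08). The proline-rich AT1G26250, at 3.77 and 3.99 against 1.92 and 1.71 RPKM (1.00), and the faint AT2G40113, at 0.682 and 0.540 against 0.160 and 0.0890 RPKM (1.20), were higher in the same comparison. AT2G40113 had a mean of 0.267 RPKM over all shoot libraries and passed the filter of 0.25 only through this line 12 group. The call of AT2G40113 was lost in all 3 fits without 1 library in which it passed the filter (adjusted p = 0.0792 to 0.152), and without the libraries that stand apart (0.132).

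The receptor kinase PERK10 was at 31.2 and 29.0 RPKM in WT shoots at sufficient Pi and 55.6 and 49.9 after 3 days, where line 12 went from 42.2 and 45.1 to 33.9 and 37.6 and line 4 from 38.7 and 42.1 to 33.8 and 36.2. The 3-day responses differed from that of WT by −1.09 in line 12 and −1.01 in line 4 (SE 0.15, adjusted p = 1.13e-04 and 2.92e-04, limma), although no single comparison reached a 2-fold difference. In all, 7 of 25 members had a different 3-day response in line 12, beside 33.2% of all genes, and 6 in line 4, beside 29.8%, so both shares, 28% and 24%, lay below those of all genes. Without the second sufficient library of WT or of line 12 the count for line 12 was 4. PERK1 ranged from 31.0 to 56.9 RPKM over the 18 shoot libraries. ELP was at 1277 and 1261 RPKM in WT at sufficient Pi and at 852 and 939 in line 12 at 1 day, its lowest group. Against WT at 1 day, with a mean of 1457 RPKM, that difference passed on p (log2 difference −0.70, adjusted p = 3.66e-04, limma). Its ratio of means, 0.615, fell short of a 2-fold change, and ELP was not called in any shoot comparison.

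EXT6, near 0 in shoots, had its highest shoot values in line 4 at 3 days, 0.448 and 0.914 RPKM against 0.0811 and 0.170 in WT, and root hair markers in those libraries summed to 1.91 and 4.96 RPKM against 0.742 to 2.20 in the other shoot libraries. Their part in those values was not tested. Of the extensin-making genes, 13 were tested in shoots, and 4 were higher in line 12 at 1 day, beside 11.3% of all genes called in either direction. They were P4H2 (log2 difference 1.12), P4H5 (1.27), HPAT1 (1.34), which adds the first arabinose, and SERGT1 (1.20), which adds galactose to serine. In addition, 1 of the 13 was higher in line 12 at sufficient Pi (beside 9.04%) and 1 in line 4 at 1 day (beside 5.84%). HPAT1 and SERGT1 were also higher in line 12 at 3 days (1.24 and 1.17) and in line 4 at 3 days (1.42 and 1.06).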

How the data were processed

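RNA of shoots and roots of Arabidopsis seedlings was sequenced in 36 libraries. The authors aligned the reads to TAIR10 in CLC Genomics Workbench and deposited RPKM values per gene for each library. Other deposited sheets hold the authors' own comparisons and were not used, and 0 columns belonged to no listed sample. Raw counts were not used here. Groups were taken from the sample labels.

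Entries with no gene name (146, at most 0.109% of summed RPKM) were left out. limma 3.58.1 in R 4.3.3 was fitted with a variance trend to log2(RPKM + 0.25) for the genes whose mean RPKM was 0.25 or more, with 1 model of 9 groups per tissue and 9 residual degrees of freedom, and 1 model over both tissues for root against shoot. This pseudocount understates fold changes of low genes. p-values were adjusted over all genes tested, the call limits are given in the report, and group means under 0.25 RPKM were set to 0.25 in ratios. Differences between responses were called on adjusted p alone. The replicates are separate pools of seedlings.

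Members were found by their description, and these members, the gene lists and the tests were chosen with earlier results of these data known. Named were the members called in a comparison (at most 30), the 6 highest in each tissue and the highest of each family. The extensin-making genes and the root hair, green tissue, root and pollen markers came from textbook knowledge. All 51 members matched the RefSeq TAIR10.1 annotation, from which sequences and block counts were read. The fitting script was tested on simulated data. Alternatives were other pseudocounts, no filter, median-ratio scaling, a replicate block, no variance trend, each library left out and, chosen after seeing the data, leaving out 5 shoot libraries.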

Additional observations from a re-analysis of the deposited data

Results flagged for a closer look

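The 3-day starvation response of a line was set against that of WT by an interaction term, and 28 differences passed the test at an adjusted p under 0.05 in limma. In roots they were 3 of 36 members in line 12 (8.33%), beside 11.1% of all genes, and 12 in line 4 (33.3%), beside 6.42%. In shoots they were 7 of 25 in line 12 (28%), beside 33.2%, and 6 in line 4 (24%), beside 29.8%. Only the root share of line 4 lay above that of all genes. All values are log2 differences, line minus WT, and the 2 lines share the WT libraries. In line 12 roots the response was larger than in WT for AT3G09925 (0.88), AT3G54580 (0.78) and AT4G08400 (0.89). In line 4 roots it was larger for EXT12 (1.52), AT2G47530 (1.39), EXT6 (1.36), MOP10 (1.36), EXT13 (1.31), AT3G09925 (1.24), AT5G06630 (1.21), EXT10 (1.21), AT4G08410 (1.02), AT3G54580 (0.96), AT2G47540 (0.84) and AT4G17215 (0.47). Of the 8 fits without 1 library, the call was lost in 7 for AT3G54580 and AT4G08400 in line 12 and for AT2G47530 and AT4G08410 in line 4, in 5 for AT3G54580, 4 for AT5G06630 and 3 for AT4G17215 in line 4, and in 1 each for AT3G09925 in line 12 and MOP10 and EXT10 in line 4. Without line 4 sufficient replicate 2 the line 4 values of the calls then lost were 0.77 for AT2G47530, 0.70 for AT4G08410, 0.90 for AT5G06630 and 0.81 for AT3G54580. That library had the lowest estimated total, 19.0 M reads.

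In line 12 shoots the response was more positive for AT4G17215 (0.88), AT1G78040 (0.65) and AT5G13140 (0.53), and more negative for EXT3 (−2.19), AT3G26960 (−1.55), PERK10 (−1.09) and AT5G41050 (−1.06). In line 4 shoots it was more positive for AT4G17215 (1.69) and AT1G78040 (0.64), and more negative for AT3G26960 (−2.08), PERK10 (−1.01), AT5G41050 (−0.89) and AT1G26250 (−0.64). Without the 5 shoot libraries that stand apart, 6 of these shoot calls were lost: in line 12 EXT3 (−1.01, adjusted p = 0.355), AT1G78040 (0.49, 0.163), AT4G17215 (0.62, 0.349) and AT5G13140 (0.38, 0.226), and in line 4 AT1G26250 (−0.74, 0.105) and AT1G78040 (0.60, 0.0837). Of the 8 fits without 1 library, the call was lost in 7 for AT4G17215 in line 12 and AT1G26250 in line 4, in 5 for AT1G78040 in line 4, in 4 for AT1G78040 in line 12, and in 3 each for EXT3 and AT5G13140 in line 12. The root hair marker sum in roots went from 159 and 161 to 353 and 397 RPKM in WT. In line 12, with 3 root members called, it went from 77.2 and 78.5 to 280 and 284. In line 4, with 12 called, it went from 46.9 and 83.4 to 309 and 333. The part of root hairs in the root differences was not tested.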

How the results depend on the processing

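No result reversed under any alternative run. Of 140 calls of single members, 129 were kept with median-ratio scaling, 127 with no filter, 126 with no variance trend, 137 with a pseudocount of 0.05, 138 with 1 and 139 with the replicate block. Without the 5 shoot libraries that stand apart, 17 of the 34 shoot calls and all 33 calls between root and shoot were kept, and the counts became 1 in WT at 1 day, 1 in WT at 3 days, 1 in line 12 and 1 in line 4 at sufficient Pi, 0 in line 4 at 1 day and 4 for the response of line 12. The cause of these changes was not tested. In shoots of line 4 at 3 days the 1 call became 3 with a pseudocount of 1, 5 with no filter, 2 with the replicate block and 4 with no trend, and the response of line 4 went from 6 to 10 with no filter. In roots, line 12 went from 6 to 3 at 1 day with no trend and from 2 to 1 at 3 days with no filter, and line 4 at 1 day from 2 to 1 with a pseudocount of 0.05, no filter or no trend. The root response of line 12 went from 3 to 1 with no filter or no trend, to 10 with median-ratio scaling and to 7 with the replicate block. The main fits did not pair libraries by replicate number. Residuals of same-numbered libraries had a median correlation of 0.00626 in shoots (−0.211 to 0.238) and 0.0725 in roots (−0.0688 to 0.238). The 313 genes seen only in the 5 shoot libraries that stand apart were left out of these correlations. Of 36 pairs of groups per tissue, 8 in shoots and 10 in roots were above 0.1. In roots every first replicate had a larger estimated total (29.6 M reads or more) than every second one (at most 27.0 M). Whether the replicate numbers mark a batch was not tested.

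With 1 library left out at a time, shoot counts ranged from 0 to 1 in WT at 1 day, 0 to 2 in WT at 3 days, 1 to 3 in line 12 at sufficient Pi, 6 to 8 at 1 day and 1 to 3 at 3 days, 1 to 2 in line 4 at sufficient Pi, 0 to 1 at 1 day and 1 to 2 at 3 days, and 4 to 8 and 4 to 6 for the responses of lines 12 and 4. Root counts ranged from 2 to 3 in WT at 1 day, 15 to 17 higher and 0 to 1 lower at 3 days, 10 to 13 lower in line 12 and 13 to 15 in line 4 at sufficient Pi, 2 to 10 in line 12 and 0 to 1 in line 4 at 1 day, 0 to 2 in line 12 and 0 to 0 in line 4 at 3 days, and 0 to 4 and 7 to 14 for the responses of lines 12 and 4. Root against shoot gave 24 to 25 higher and 9 to 10 lower. A group left with 1 library was assumed to vary like the others. With 2 libraries a group and no read counts used, changes of faint members are the least certain.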
